A study of Mus musculus with 2 samples.

Results

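The genes described here are a set of 10 smooth muscle contractile genes: Acta2, Actg2, Myh11, Des, Cnn1, Tagln, Mylk, Lmod1, Tpm2 and Ckm. Ckm encodes a creatine kinase, and the others encode proteins of the contractile apparatus. The 10 genes were chosen by symbol, each symbol matched 1 gene of the files, and they are 10 of the 31053 genes listed. The data are droplet single-cell counts of RNA molecules (unique molecular identifiers, UMIs) from the colon of wild-type C57BL/6 mice. A library from mice given THC (tetrahydrocannabinol, the main psychoactive compound of cannabis) at 10 mg/kg was set beside a library from mice given the vehicle control. Per the labels' protocols the epithelium was loosened with EDTA, the rest was digested with enzymes, and the lamina propria layer was enriched on a density gradient, so how much of the muscle wall was carried along is not known. The labels state no number of pooled mice, age, sex, dosing schedule or composition of the vehicle. There was 1 library for each treatment, hence no spread between replicates and no test, and every interval below covers counting error alone.

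Smooth muscle shortens when myosin filaments pull on actin filaments. Calcium signalling activates myosin light chain kinase, which phosphorylates the myosin light chain and starts the cycle, while tropomyosin, calponin and transgelin lie on or bundle the actin filament, leiomodin nucleates it and desmin links the apparatus to the rest of the cell. In the gut these proteins are found in the circular and longitudinal muscle layers, in the muscularis mucosae and in the walls of vessels, and some of them also in pericytes and myofibroblasts. Many of the genes are controlled by serum response factor, which binds a short DNA element called the CArG box.

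After filtering, 395 THC and 628 vehicle cells remained, with medians of 8529 and 7101.5 UMIs. No kept cell barcode was shared by the libraries. The deposited THC matrix held all 737280 possible barcodes and the vehicle matrix held 973, so the vehicle barcodes had been selected before deposit, and cell shares are not compared here. Cells were clustered and named without the 10 genes and without 58 listed related genes, so that the levels of the 10 in a class were not used directly to form it. Other genes with a like profile did serve as markers, among them Synpo2 and Rgs5. The classes are therefore not wholly independent of the set. Names carry "-like" because they were rebuilt from markers. The smooth muscle-like class had 11 smooth muscle and 5 pericyte markers among its marker genes, and the fibroblast-like classes had 6 to 8 fibroblast markers per cluster. The pericyte-like class had 7 pericyte and 6 smooth muscle markers. Of the pericyte markers, Kcnj8 had 0 UMIs there in both libraries, and Abcc9 had 1 in THC and 0 in vehicle. In the smooth muscle-like class Kcnj8 had 123 and 65 UMIs and Abcc9 82 and 63. The name is thus a label, and pericytes were not told apart from smooth muscle cells of vessels. Further clusters stayed unnamed and are called by a leading gene. The Hand1 cluster had 10 smooth muscle markers and 4 markers of interstitial cells of Cajal, the pacemaker cells of the gut. It also had 6 pericyte and 3 myofibroblast markers. The Hhip cluster had 7 smooth muscle, 6 myofibroblast and 3 pericyte markers. The Bmp2 cluster had 9 of 11 myofibroblast markers, but Hhip, another of them, had 0 UMIs in THC and 1 in vehicle there, against 120 and 172 UMIs in the Hhip cluster.

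The contractile genes were concentrated in 4 of these groups. The smooth muscle-like class, the Hand1 cluster, the Hhip cluster and the pericyte-like class together made up 14.7% of THC and 11.3% of vehicle cells, and held 98.5% and 95.9% of all UMIs of the 10 genes. In the smooth muscle-like class (21 THC and 21 vehicle cells) the 10 genes took 15.7% (95% interval 15.5 to 15.8) of all UMIs in the THC library and 13.3% (13.1 to 13.4) in the vehicle library. Single cells ranged between 10.00% and 20.7% in THC and between 7.28% and 16.7% in vehicle. The Hand1 cluster (17 and 22 cells) had 5.59% and 5.97%, and the Hhip cluster (15 and 20 cells) had 5.20% and 5.31%. The pericyte-like class (5 and 8 cells) had 2.58% and 4.61%. No cell of the Hhip cluster reached the lowest smooth muscle-like cell of the THC library: its highest cell was at 8.29% in THC and 7.97% in vehicle. In vehicle the lowest smooth muscle-like cell, at 7.28%, lay below it. Cells of the Hand1 cluster overlapped with the smooth muscle-like class, reaching 12.96% in THC and 13.1% in vehicle.

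**Figure D1:**
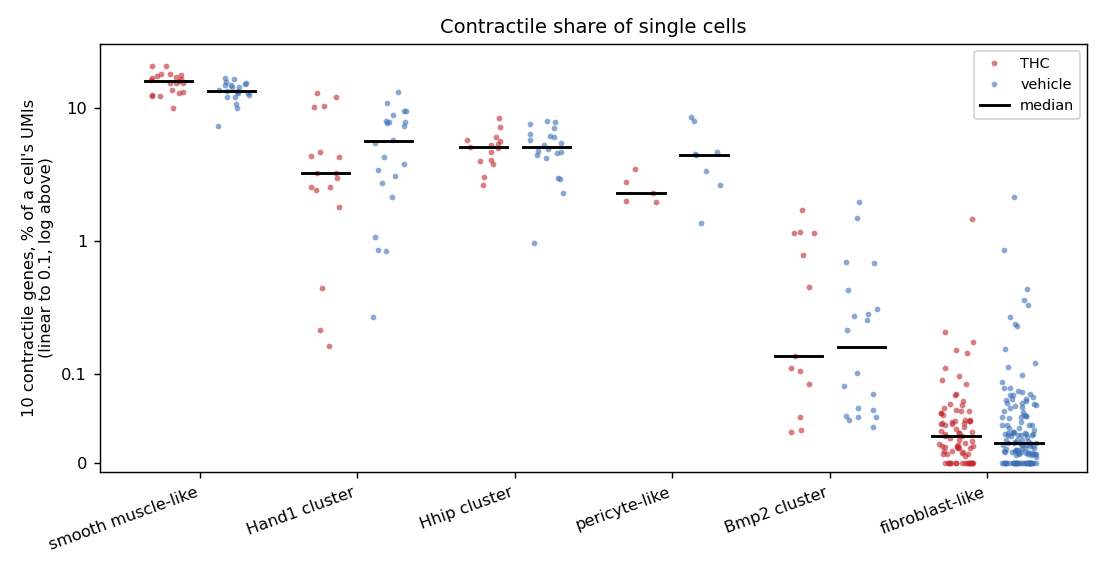
Percent of each cell's UMIs that came from the 10 contractile genes, by class, with THC cells left of vehicle cells and bars at the medians (axis linear to 0.1, logarithmic above). Smooth muscle-like cells lie between 7.28% and 20.7%, whereas the Hand1 cluster runs from 0.163% to 13.1%.

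Below these groups the level dropped in steps. Cells of the Bmp2 cluster (13 THC and 20 vehicle) had 0.604% and 0.355%, with per-cell medians of 0.137% and 0.159%, and 4 THC and 2 vehicle cells lay over 1%. Fibroblast-like cells (80 and 136) had 0.0644% and 0.0604%. Set against the fibroblast-like class of the same library, the smooth muscle-like class was higher by 7.93 on the log2 scale (7.78 to 8.08) in THC and by 7.78 (7.66 to 7.90) in vehicle, which is 243-fold and 220-fold. Without the single richest cell of each class the same values were 8.67 and 8.13. Epithelial-like cells, which should lack most of these genes, had 0.00491% and 0.00536% at medians of 20239 and 15998 UMIs per cell, and B-like cells had 0.00743% and 0.00656%. In the order of classes, the Hand1 and Hhip clusters differed by 0.10 (0.06 to 0.15) in THC and 0.17 (0.13 to 0.21) in vehicle on the log2 scale, far less than the spread among their cells. The Hhip cluster was above the pericyte-like class by 1.01 (0.90 to 1.12) in THC and by 0.21 (0.14 to 0.27) in vehicle, and their single cells overlapped in both libraries.

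A single vehicle cell stood outside this pattern. It fell in a proliferating cluster led by Gm26917, held 19153 UMIs, and had 8.65% of them from the 10 genes. It carried 98.6% of the contractile UMIs of that cluster's vehicle cells, which had 0.512% with it and 0.00777% without it.

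Of the 10 genes, the RefSeq promoter table (build GRCm38.p6, 250 bases before to 50 bases after each annotated start) holds 7. Each was searched for the CArG box, read as CC, then 6 bases that are each A or T, then GG, which reads the same on both strands. None of the 7 held the strict box, against 1.63% of 32851 promoters. The search was then widened, after that result was seen, to boxes with at most 1 of the 6 central bases other than A or T. This form was found in 2 of the 7, Acta2 and Ckm, and in 9.98% of all promoters. Both are shown because they are the members with a box, and because they stand at opposite ends of the pattern below: Acta2 was found in every contractile class and Ckm in hardly any class beyond smooth muscle. The capitals mark the boxes, which start at positions -84 and -34 in Acta2 (chr19:34255324-34255623, minus strand) and at -178 in Ckm (chr7:19410844-19411143, plus strand), counted from the annotated start.
Acta2: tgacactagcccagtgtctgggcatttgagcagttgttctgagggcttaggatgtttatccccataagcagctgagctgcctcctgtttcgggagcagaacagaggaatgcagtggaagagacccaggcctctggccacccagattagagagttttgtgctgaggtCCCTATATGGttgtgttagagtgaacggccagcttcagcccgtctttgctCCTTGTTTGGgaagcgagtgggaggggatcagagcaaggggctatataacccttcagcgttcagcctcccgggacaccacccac
Ckm: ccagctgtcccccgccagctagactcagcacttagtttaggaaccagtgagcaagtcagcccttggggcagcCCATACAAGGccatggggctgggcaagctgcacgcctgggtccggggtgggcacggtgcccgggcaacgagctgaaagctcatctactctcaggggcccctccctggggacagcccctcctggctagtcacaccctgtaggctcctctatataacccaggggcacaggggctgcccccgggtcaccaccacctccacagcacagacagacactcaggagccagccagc

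The smooth muscle actins are Acta2 (ENSMUSG00000035783), the form of vessels and myofibroblasts as well as of muscle layers, and Actg2 (ENSMUSG00000059430), the enteric form. Levels are given as CPM over the summed UMIs of a class, where 10000 CPM are 1% of the UMIs. Acta2 had 24998 CPM in THC and 24521 CPM in vehicle smooth muscle-like cells. It had 15900 and 16577 CPM in the Hand1 cluster, 17939 and 16188 CPM in the Hhip cluster and 9602 and 16652 CPM in pericyte-like cells. Actg2 had 30954 and 21468 CPM in smooth muscle-like cells, 6919 and 6326 CPM in the Hand1 cluster and 3914 and 3326 CPM in the Hhip cluster. In pericyte-like cells Actg2 had 0 UMIs in THC and 9 UMIs in vehicle, although Acta2 was well covered there. Acta2 was thus spread over all 4 groups, while 84.0% and 69.6% of all Actg2 UMIs lay in the smooth muscle-like class.

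The Actg2 UMIs per Acta2 UMI, a measure chosen after the levels had been seen, ordered the classes. It was 1.24 in THC and 0.876 in vehicle smooth muscle-like cells, 0.435 and 0.382 in the Hand1 cluster, and 0.218 and 0.205 in the Hhip cluster. The pericyte-like class had 0 Actg2 UMIs beside 288 Acta2 UMIs in THC and 9 beside 897 in vehicle. In single smooth muscle-like cells it ran between 0.346 and 2.52 in THC (median 1.27) and between 0.251 and 1.41 in vehicle (median 0.936). Actg2 exceeded Acta2 in 16 of 21 THC cells and in 6 of 21 vehicle cells of that class. Outside it, this was seen in 1 vehicle cell of the Hand1 cluster and in no other cell of these groups with at least 10 Acta2 UMIs. The UMIs of this kit mark the 5' end and do not scale with transcript length. Actin genes have nearly identical coding sequences, so a read from the shared part may be assigned to either gene or to none, and the ratio carries that uncertainty.

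**Figure D2:**
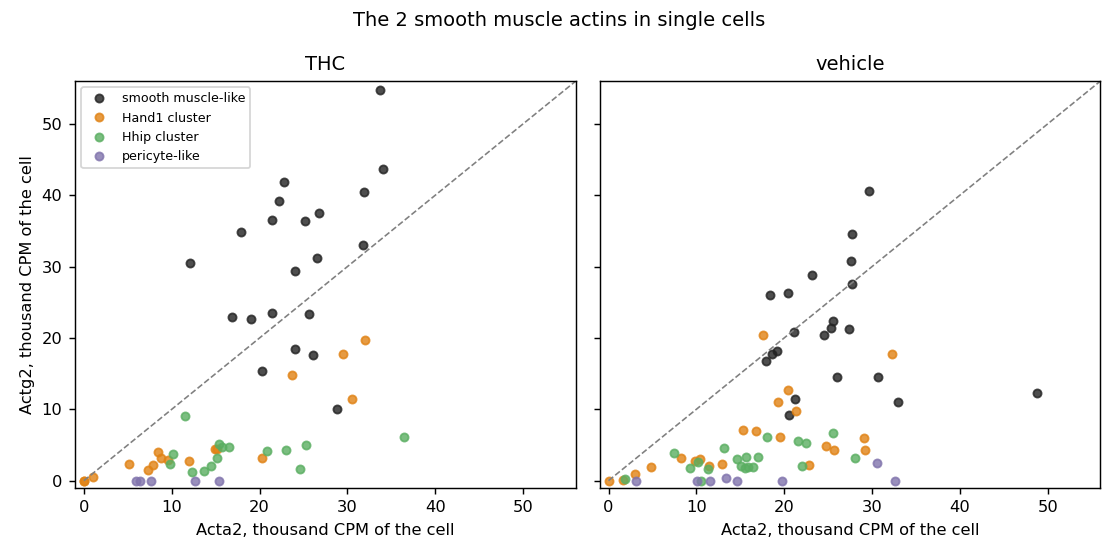
Actg2 against Acta2 in single cells of the THC library (left) and the vehicle library (right), each in units of 1000 CPM of the cell and coloured by class, with the dashed line at equality. Above the line lie 16 of 21 THC and 6 of 21 vehicle smooth muscle-like cells, and pericyte-like cells lie along the Acta2 axis.

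Myosin and its kinase were higher in smooth muscle-like cells than in the other 3 groups in both libraries. Myh11 (ENSMUSG00000018830), the smooth muscle myosin heavy chain, had 10665 CPM in THC and 9915 CPM in vehicle smooth muscle-like cells. It had 3480 and 3558 CPM in the Hand1 cluster, 2841 and 3780 CPM in the Hhip cluster and 2467 and 4232 CPM in pericyte-like cells. Mylk (ENSMUSG00000022836), the light chain kinase, had 9608 and 10319 CPM in smooth muscle-like cells, 4280 and 5266 CPM in the Hand1 cluster and 2970 and 3105 CPM in the Hhip cluster. Pericyte-like cells held less Mylk, 934 and 1337 CPM. Mylk was also found in epithelial-like cells: 32.8% of THC and 25.3% of vehicle epithelial-like cells held a UMI of it, against 1.49% and 1.27% for Myh11 in the same cells.

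The proteins of the thin filament differed in how far they reached. Cnn1 (ENSMUSG00000001349), calponin, had 12582 CPM in THC and 9162 CPM in vehicle smooth muscle-like cells, 3422 and 4199 CPM in the Hand1 cluster and 2453 and 2444 CPM in the Hhip cluster. In pericyte-like cells it had 0 UMIs in THC and 23 UMIs in vehicle. Tagln (ENSMUSG00000032085), transgelin, had 41232 and 34590 CPM in smooth muscle-like cells and stayed high in the Hand1 cluster (14621 and 15262 CPM), the Hhip cluster (16747 and 19781 CPM) and pericyte-like cells (8402 and 16837 CPM). In the Bmp2 cluster Tagln had 2440 and 1080 CPM and Acta2 2646 and 1632 CPM, whereas Cnn1 had 0 UMIs in both libraries.

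Tpm2 (ENSMUSG00000028464), a tropomyosin, had 10659 and 10234 CPM in smooth muscle-like cells. It had 3476 and 4569 CPM in the Hand1 cluster, 3447 and 2845 CPM in the Hhip cluster and 1567 and 3341 CPM in pericyte-like cells. Of fibroblast-like cells, 51.2% in THC and 50.7% in vehicle held a Tpm2 UMI, against 2.99% and 6.33% of the deeper epithelial-like cells. With every cell thinned to 1000 UMIs these shares were 11.2% and 14.0%, against 0% and 1.27%. Lmod1 (ENSMUSG00000048096), leiomodin, was spread over all 4 groups, with 568 and 586 CPM in smooth muscle-like cells, 305 and 402 CPM in the Hand1 cluster, 328 and 427 CPM in the Hhip cluster and 367 and 557 CPM in pericyte-like cells. It had 0 UMIs in Bmp2 cluster and fibroblast-like cells of both libraries, which in fibroblast-like cells allows up to 5.19 CPM in THC and 2.99 CPM in vehicle (3 UMIs per library).

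Des (ENSMUSG00000026208), desmin, the intermediate filament of muscle, had 14612 CPM in THC and 11244 CPM in vehicle smooth muscle-like cells. It had 3356 and 3373 CPM in the Hand1 cluster and 2467 and 2525 CPM in pericyte-like cells, but 1351 and 1222 CPM in the Hhip cluster. Desmin was thus lower in the Hhip cluster than in pericyte-like cells in both libraries, whereas Actg2 and Cnn1 were higher there. Single cells overlapped, with 0 to 3633 CPM of Des in THC Hhip cluster cells and 1408 to 4898 CPM in THC pericyte-like cells. Bmp2 cluster cells had 0 and 2 Des UMIs. Fibroblast-like cells held a Des UMI in 28.8% of cells in THC and 28.7% in vehicle, against 5.41% and 5.80% of B-like and 2.99% and 2.53% of epithelial-like cells. Median depths were 7431 and 7284.5 UMIs in fibroblast-like and 3106 and 3133 UMIs in B-like cells, and thinned to 1000 UMIs the fibroblast-like shares were 7.50% and 9.56%, against 0% and 0% in B-like cells.

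Ckm (ENSMUSG00000030399), the muscle creatine kinase that rebuilds ATP from phosphocreatine, is best known from skeletal and heart muscle. It was the member with the largest share of its UMIs in smooth muscle-like cells, 89.3% in THC and 79.8% in vehicle. The 4 groups held 99.3% in both libraries, and in THC Lmod1 (100%) and Cnn1 (99.7%) were among members with more there. The level was 692 CPM in THC and 727 CPM in vehicle smooth muscle-like cells, and 115 and 185 CPM in the Hand1 cluster. Hhip cluster cells held 0 and 1 UMIs, and pericyte-like cells 0 and 0. Within the smooth muscle-like class Ckm was uneven. In THC, 5 of 21 cells had 0 or 1 UMI and the other 16 had 7 to 23 UMIs. In vehicle, 7 of 21 had 0 or 1 UMI and the other 14 had 7 to 27. This split was drawn after the values had been seen. The cells with 0 or 1 Ckm UMI were not shallower, with medians of 18125 and 16845 UMIs against 15532 and 13982 UMIs in the others. Their 10 genes together stood at 16.9% and 12.8% of UMIs, against 15.6% and 13.9%. Pcp4, one of the smooth muscle markers, was found in 2 of those 5 THC cells and 3 of those 7 vehicle cells, and in 15 of 16 and 14 of 14 of the others. Of 12 markers of skeletal and cardiac muscle, 2 had any UMI in the smooth muscle-like cells of each library (Acta1 and Mylpf in THC, Acta1 and Tnni2 in vehicle), for summed levels of 13.8 and 36.2 CPM, and Mb and Tnnt3 had 0 UMIs.

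**Figure D3:**
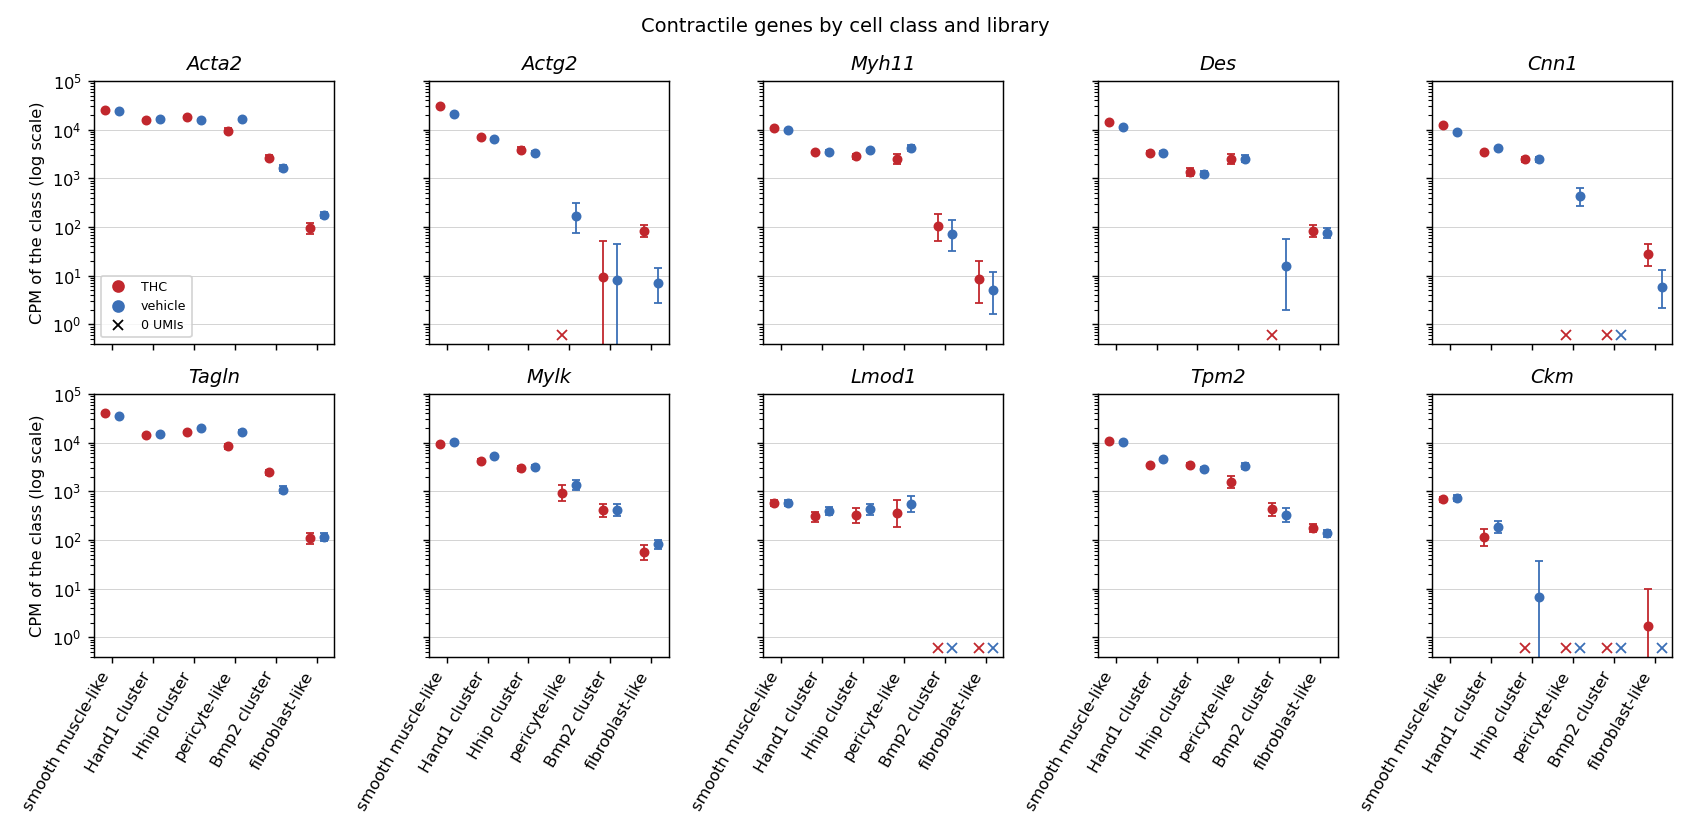
CPM of each gene in 6 classes on a logarithmic axis, THC left of vehicle, with exact 95% counting intervals and crosses at the bottom for 0 UMIs. Acta2, Myh11, Des, Tagln, Mylk, Lmod1 and Tpm2 reach every one of the first 4 classes. In pericyte-like cells Actg2 and Cnn1 have 0 UMIs in THC and 167 and 427 CPM in vehicle, and Ckm has 0 UMIs in both.

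Among single smooth muscle-like cells of both libraries, Tagln and Acta2 varied least, with coefficients of variation of the per-cell CPM of 0.238 and 0.252. Cnn1, Lmod1 and Ckm varied most, at 0.503, 0.490 and 0.816, but Lmod1 and Ckm rest on few UMIs per cell. For Cnn1 the spread lay mostly in THC, with a standard deviation of 6527 CPM around a mean of 11956. In vehicle it was 2883 CPM around a mean of 8839, and 1 THC cell held 15.9% of the THC Cnn1 UMIs. Across 33 sums of UMIs by cluster and library, the closest pair of members was Tagln and Acta2 (Pearson r of 0.96 across sums, log2 of CPM + 1). The least alike were Ckm and Mylk (0.61). These sums share libraries and differ in depth, and the values are descriptions. The 8 genes outside the set whose profile over the 33 sums was most like its mean, among 6586 genes, were Sntg2, Hspb7, Synpo2, Slc2a4, Optc, Kcnmb1, Rgs5 and Flna, with r from 0.93 to 0.96. Of the members themselves, Lmod1 was the closest to the mean (0.96) and Ckm the furthest (0.81). Each member is part of that mean, which raises its r, so members and outside genes are not on the same footing.

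The study's comparison is THC against vehicle. In smooth muscle-like cells the 10 genes together were 1.18-fold higher in the THC library, or 0.24 on the log2 scale (0.22 to 0.26). The THC and vehicle cells overlapped, with 15 of 21 THC cells above the vehicle median. Past 1.5-fold in either direction, the size that stands in for a call, were 0 of 10 genes, against 23.2% of the 3983 genes with at least 20 UMIs in the class (8.86% higher and 14.4% lower). Of all genes past 1.5-fold 38.1% were higher in THC, against 53.9% with TMM scaling (library sizes set by a trimmed mean of gene ratios), which adds 0.09 to each log2 value. Of the 10 genes, 7 were above 0. The median of the 10 was 0.08 and that of all genes tested -0.06. All smooth muscle-like cells but 1 had at least 5% mitochondrial UMIs, with medians of 8.09% and 8.09%, near the limit of 10% for keeping a cell. The 13 smooth muscle markers, of which 11 had served for naming, summed to 7294 CPM in THC and 7619 CPM in vehicle, with single cells from 3877 to 10529 CPM and from 2494 to 11232 CPM. Of 9 fibroblast markers 4 had UMIs in each library, summing to 1153 CPM (389 to 2724 per cell) in THC and 796 CPM (285 to 2318) in vehicle. Of 10 pericyte markers 5 and 6 had UMIs, summing to 3114 CPM (799.6 to 6421) and 2612 CPM (292 to 7473), mostly from Rgs5, with Notch3 at 0 in both libraries. Kit, the leading marker of interstitial cells of Cajal, and Hhip were at 0 UMIs in both. Other myofibroblast markers were found, among them Postn (187 UMIs in THC and 259 in vehicle), Tnc (122 and 46) and Aspn (42 and 50). Hand1, the gene leading the Hand1 cluster, had 84 and 33 UMIs. Whether these differences had a part in the contractile values was not tested.

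Among the genes, Actg2 had the highest ratio, with 31256 CPM in the median THC cell (9986 to 54772) and 20862 CPM in the median vehicle cell (9145 to 40520). The class ratio was 1.44-fold or 0.53 (0.48 to 0.57), and 17 of 21 THC cells lay above the vehicle median. Actg2 came closest to 1.5-fold, and it passed that size in 9 of 14 alternative analyses, so the count of 0 rests on the settings. Cnn1 followed with 1.37-fold or 0.46 (0.39 to 0.53). Des stood at 0.38 (0.32 to 0.44), Tagln at 0.25 (0.22 to 0.29) and Myh11 at 0.11 (0.04 to 0.17). The richest THC cell held 16.4% of the THC UMIs of Actg2, 15.9% of Cnn1 and 15.2% of Des.

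Acta2 (0.03, -0.02 to 0.07) and Tpm2 (0.06, -0.01 to 0.13) had intervals that included 0. Below 0 were Mylk (-0.10, -0.17 to -0.03), Lmod1 (-0.04, -0.34 to 0.25) and Ckm (-0.07, -0.34 to 0.20), of which Lmod1 and Ckm turned to 0.05 and 0.02 with TMM scaling. Acta2 and Myh11 were below 0 in 2 and 1 of the 14 alternatives, and Mylk above 0 in 2. Ckm was above 0 in 8 of them (-0.20 to 0.76) and Lmod1 in 4, so neither has a settled direction. The actins differed in their ratios: the median THC cell had 24031 CPM of Acta2 and the median vehicle cell 25349 CPM, with 9 of 21 THC cells above the vehicle median. A vehicle cell of this class with 10.6% immunoglobulin UMIs held 7.28% contractile UMIs, the lowest of the class. Without it the sum stood at 0.20 and Actg2 at 0.49.

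**Figure D4:**
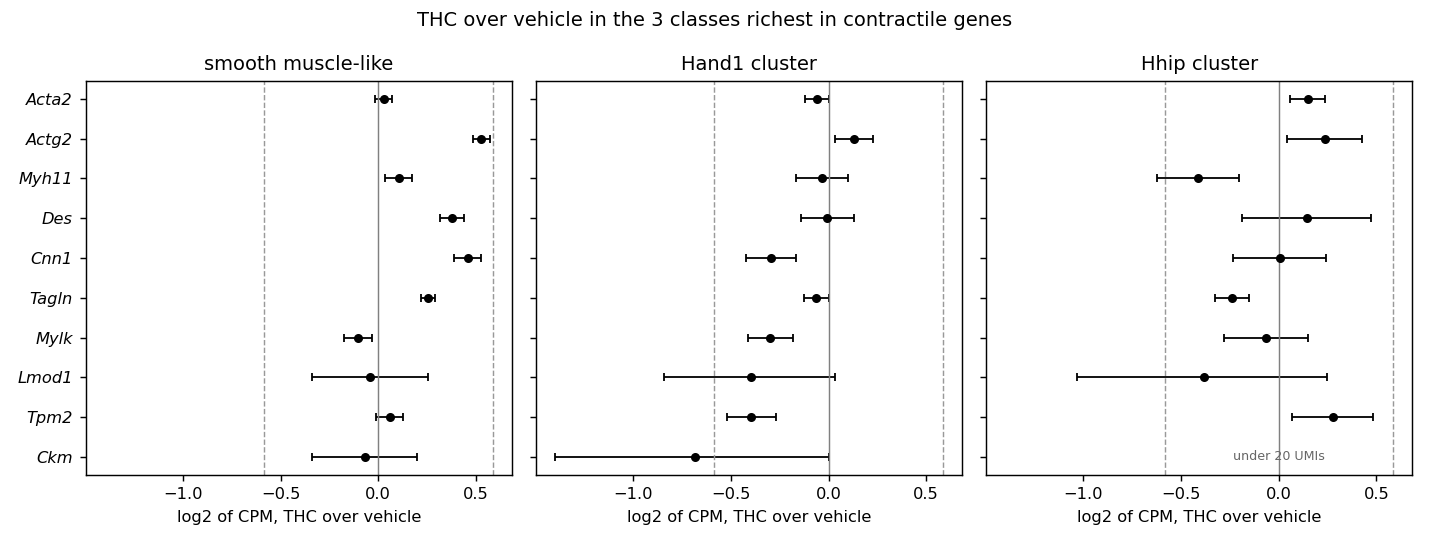
Log2 ratio of CPM, THC over vehicle, of each gene in the smooth muscle-like class, the Hand1 cluster and the Hhip cluster, with exact 95% counting intervals and dashed lines at 1.5-fold. In smooth muscle-like cells Actg2 stands at 0.53 and Mylk at -0.10, and in the Hand1 cluster Ckm, with 28 and 53 UMIs, is past the line.

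Other genes of the apparatus were taken from lists made for this description. Of 18 further contractile proteins, 0 were past 1.5-fold and 13 were above 0, with a median of 0.13. Myl9, the regulatory light chain (0.19), Tpm1 (0.12) and Flna, filamin A (0.15), had the highest lower bounds, and Cald1, caldesmon (-0.38), Vcl, vinculin (-0.57), and Svil, supervillin (-0.37), the lowest upper bounds. Among listed regulators Arhgef12 was past 1.5-fold lower (-0.75, 22 and 31 UMIs), with an interval that included 0.

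Of 9 measured genes of calcium handling, channels and receptors, 3 were past 1.5-fold higher and 1 lower, against 8.86% and 14.4% of all genes in the class. The higher ones were Kcnma1 (1.51, 17 and 5 UMIs), Kcnmb1 (0.69, 52 and 27 UMIs), which encode the subunits of the large calcium-activated potassium channel, and Ryr2 (0.75, 24 and 12 UMIs). Casq2 was the lower one (-0.64, 13 and 17 UMIs). Of these 4 only Kcnma1 had an interval apart from 0, by 0.01. Pln (-0.46), Atp2a2 (-0.11) and Cacna1c (-0.38) had the lowest upper bounds of that list, but each had an interval that included 0. Of 8 listed genes of serum response factor and its cofactors 6 were in the files and 3 had enough UMIs. Srf (-0.01), its cofactor Myocd (-0.01) and Foxf1 (0.39) had intervals that included 0, and none of them was past 1.5-fold. The brain creatine kinase Ckb stood at -0.17 (-0.27 to -0.07), and the cytoplasmic actins Actb and Actg1 at 0.18 and 0.15, with no gene of the actin and tropomyosin relatives past 1.5-fold.

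In the Hand1 cluster the 10 genes together were lower in THC by 0.10 on the log2 scale (-0.10, -0.13 to -0.06). Past 1.5-fold was 1 of 10, Ckm, which was lower (-0.68, -1.40 to 0.00), against 12.0% of 4084 genes lower. Its 28 THC UMIs lay in 4 of 17 cells, with 53.6% in 1 cell. Its 53 vehicle UMIs lay in 7 of 22 cells, with 30.2% in 1 cell. The median of the 10 genes was -0.18 and that of all genes -0.01, and 9 of 10 were below 0, with Actg2 at 0.13 (0.03 to 0.23). Among listed genes, Cnn2 was past 1.5-fold higher (0.78) and Ppp1r14a (-0.69, 52 and 99 UMIs), Kcnma1 (-1.13, 14 and 36 UMIs) and Chrm2 (-0.71, 15 and 29 UMIs) lower. This cluster was mixed. Kit, the receptor that marks interstitial cells of Cajal, had a UMI in 12 of 17 THC and in 10 of 22 vehicle cells. Cells with Kit held 2.71% contractile UMIs in THC and 2.17% in vehicle, at most 4.31% and 4.29% in a cell. Cells without Kit held 10.3% and 8.38%, and at least 4.66% and 5.45%, so the sides did not overlap in either library. Cells without Kit were deeper, with medians of 18607 and 14069 UMIs against 12372.5 and 11537 UMIs.

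**Figure D5:**
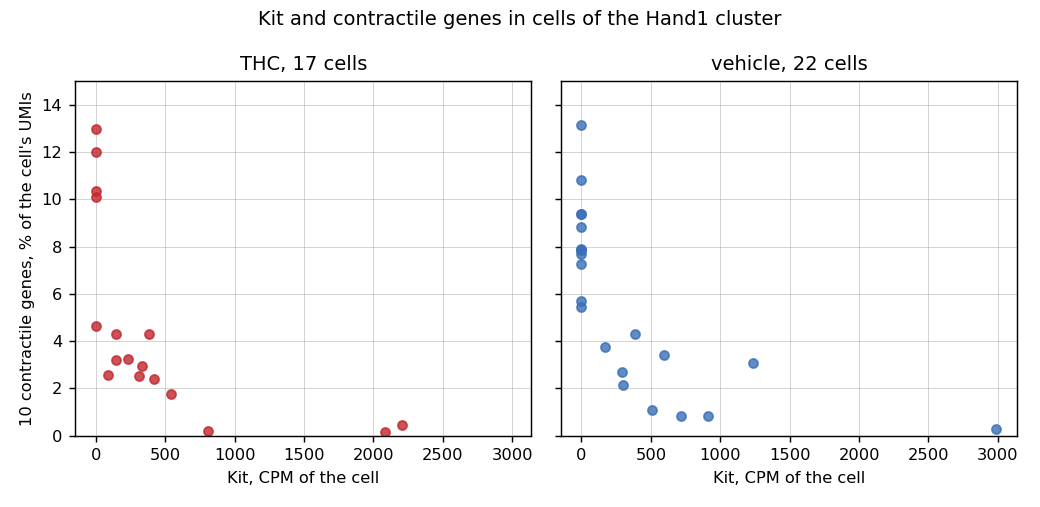
Percent of a cell's UMIs from the 10 contractile genes against Kit in CPM of that cell, for the 17 THC cells (left) and 22 vehicle cells (right) of the Hand1 cluster. Cells without Kit lie at 4.66% or above and cells with Kit at 4.31% or below.

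Within each side of this split, which was made after the values had been seen, the direction was the other way. The sum was higher in THC by 0.33 (0.25 to 0.40) in cells with Kit and by 0.29 (0.25 to 0.33) in cells without it. In cells without Kit, Actg2 had 13751 CPM in THC and 9059 CPM in vehicle, 1.52-fold or 0.60 (0.49 to 0.71). It was the 1 member past 1.5-fold there, against 11.1% of genes higher. In cells with Kit, Actg2 stood at 0.44 (0.20 to 0.68), and Des (0.67) and Tagln (0.70) were past 1.5-fold, against 12.1% of genes higher. Ckm had 0 UMIs in all cells with Kit and 303 CPM in THC and 303 CPM in vehicle cells without it (0.00, -0.71 to 0.69).

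A gate of at least 5 Kit UMIs with no Grem1 and no Pcp4 UMI, also set after seeing the cells, left 5 cells. In 3 of them, 2 from THC and 1 from vehicle, Acta2, Actg2, Myh11, Des, Cnn1 and Tagln all had 0 UMIs at totals of 9982, 6731 and 9367 UMIs. Mylk had 39, 7 and 19 UMIs in these cells and Tpm2 5, 4 and 6. The other 2, both from vehicle, had 130 and 16 Acta2 UMIs. Mylk was thus found in cells where those 6 genes were not.

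In the Hhip cluster the sum was level between the libraries (-0.03, -0.08 to 0.02). Past 1.5-fold were 0 of the 9 measured genes, against 25.4% of 1914 genes in either direction. Actg2 (0.23, 0.04 to 0.43), Tpm2 (0.28, 0.07 to 0.48) and Acta2 (0.15, 0.06 to 0.24) were above 0, and Myh11 (-0.41, -0.62 to -0.20) and Tagln (-0.24, -0.33 to -0.15) below it. Among listed genes, Cnn3 (0.63) and Rock1 (0.80, 14 and 12 UMIs) were past 1.5-fold higher, and Tln1 (-0.87), Svil (-0.70), Arhgef12 (-0.84, 6 and 16 UMIs) and Actc1 (-1.15) lower. Actc1, cardiac actin, was among the genes leading this cluster, with 30 UMIs in 3 of 15 THC cells and 99 UMIs in 6 of 20 vehicle cells. It had 0 UMIs in the smooth muscle-like class, the Hand1 cluster and the pericyte-like class.

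The pericyte-like class gave the lowest ratios of the 10 genes together (-0.84, -0.95 to -0.72). Past 1.5-fold lower were 6 of the 8 measured genes, against 19.8% of 667 genes lower and 36.4% in either direction, with medians of -0.79 and -0.03. These were Acta2 (-0.79), Myh11 (-0.78), Tagln (0.499-fold), Tpm2 (-1.09), Lmod1 (-0.60, 11 and 30 UMIs) and Cnn1, which with 0 against 23 UMIs was at least 4.27-fold lower with 3 UMIs per library as the floor, while the upper end of its 95% interval was -1.68. Actg2, with 0 against 9 UMIs, was under the minimum for a ratio. Des was level (-0.03, -0.46 to 0.39). Only 5 THC and 8 vehicle cells stand behind this, and 1 vehicle cell held 29.9% of the vehicle Acta2 UMIs. Contractile shares of single cells ran from 1.97% to 3.45% in THC and from 1.36% to 8.52% in vehicle, and overlapped. Markers differed too: the 13 smooth muscle markers summed to 1534 CPM in THC and 2989 CPM in vehicle, and the 10 pericyte markers to 10836 and 4808 CPM, with Rgs5 at 6635 and 1893 CPM. Whether the mixture of cells had a part in the contractile values was not tested.

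In the Bmp2 cluster 2 of the 5 measured genes were past 1.5-fold higher, Acta2 (0.70, 0.43 to 0.96) and Tagln (1.18, 0.87 to 1.49), against 18.7% of 1853 genes higher and a median of 0.11 over all of them. The per-cell medians were 388 and 319 CPM for Acta2 and 528 and 156 CPM for Tagln, with 1 THC cell holding 26.9% and 1 vehicle cell 37.3% of the Acta2 UMIs. In fibroblast-like cells Actg2 (3.60) and Cnn1 (2.21) were past 1.5-fold higher and Acta2 (-0.91) lower, against 9.38% of 7439 genes higher and 9.76% lower. A single THC cell held 79.6% of the Actg2 and 93.8% of the Cnn1 UMIs. The share of fibroblast-like cells with an Actg2 UMI, 8.75% in THC and 5.15% in vehicle, stood beside 4.48% and 8.86% in the deeper epithelial-like cells. Thinned to 1000 UMIs the shares were 2.50% and 0.735%, against 0% and 1.27%.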

How the data were processed

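The deposited matrices hold raw counts of UMIs per gene and barcode from the 10x 5' kit, made by the authors with Cell Ranger 3.0.2, per the file headers. Seurat and bcl2fastq are named too, per the submitters' processing notes. For the genome build nothing is given in the sources used here. Gene and barcode tables carry names alone.

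Barcodes needed at least 1000 UMIs, 200 genes and under 10% mitochondrial UMIs. Of 654 THC and 926 vehicle barcodes, the mitochondrial limit removed 232 and 281, the gene minimum 26 and 15. Doublets called with scrublet in scanpy 1.11.5 (1 and 2) were removed. Both libraries were clustered together (1893 of 2000 variable genes, 30 principal components, 15 neighbours, Leiden resolution 1, 24 clusters), without the 10 contractile genes, 58 listed related genes and sex-linked, ribosomal, mitochondrial, T cell receptor and immunoglobulin genes.

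Markers were taken as present in a cluster if 10% or more of its cells held them, 1 log2 unit above other cells. A cluster took the class with the highest mean marker score among those with at least 3 such markers, unless another class had more or, for myofibroblasts, Hhip was not among them. These rules were written after the clusters had been seen. The 10 genes, the lists and the markers were chosen with earlier results of these data known.

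Ratios are log2 of CPM, THC over vehicle, over summed UMIs of a class, with exact conditional Poisson 95% intervals, which leave out variation between cells, mice and preparations. Genes needed 20 UMIs over both libraries. Past 1.5-fold stands in for a call. Intervals of contractile shares and of CPM are exact Poisson. The interval code recovered known fold changes in counts simulated with Poisson error alone. That checks the code, and it cannot show how well the intervals cover variation between cells. Ratios of all 10 genes are given for smooth muscle-like cells. In the other classes every measured member past 1.5-fold is named with some of the others, so the members named there are not the full set. Of the lists, up to 3 genes from each end, ordered by the interval bound nearest 0, are named, besides those past 1.5-fold, and the 8 genes most like the set had at least 200 UMIs and came from sums of at least 10 cells. Of a list of regulators only genes past 1.5-fold are given and the rest is not reported here. Alternatives changed the minimum UMIs, the mitochondrial limit, depth (thinning to 1000 UMIs), clustering, doublet calls and scaling (edgeR 4.0.16, TMM).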

Additional observations from a re-analysis of the deposited data

Results flagged for a closer look

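Contractile transcripts were also found outside the kept cells. THC barcodes of 1 to 100 UMIs, of which there were 105817, lie far below the minimum for a cell. They had 1.29% of their UMIs from the 10 genes (1.27 to 1.32), against 1.76% in all THC cells. Myh11 and Des made up 0.161% and 0.186% of UMIs in these barcodes, against 0.116% and 0.145% in THC cells, while Acta2 made up 0.165%, against 0.349%. The vehicle matrix holds no such barcodes. B-like cells of the THC library had 0.00743% and epithelial-like cells 0.00491%.

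Barcodes at or over the mitochondrial limit had 0.949% of their UMIs from the 10 genes in the THC library (232 barcodes) and 1.14% in the vehicle library (281 barcodes). Of these, 13 and 18 barcodes had over 5% contractile UMIs, beside 34 and 46 such cells among those kept.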

How the results depend on the processing

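No paired analysis was possible because each treatment has 1 library and the labels give no replicate numbers. The summed contractile genes in smooth muscle-like cells stayed higher in THC in 14 of 14 alternatives, against 0.24 as reported. The log2 values were 0.22 with the mean of per-cell CPM, 0.33 with TMM scaling, 0.21 with the richest cell per library left out, 0.34 with the contractile genes kept for clustering, 0.31 with a THC minimum of 2525 UMIs, 0.34 with that minimum in both libraries, 0.39 with 500 UMIs in both, 0.30 with under 20% mitochondrial UMIs and 0.64 with the libraries clustered apart, where the class held 26 THC and 53 vehicle cells. Added after seeing the data were 0.28 with the Hand1 and Hhip clusters joined to the class and 0.20 without the vehicle cell rich in immunoglobulin.

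The count of members past 1.5-fold was 0 as reported. It was 1 when thinned, with TMM scaling, at resolution 0.5, with the contractile genes kept, with 2525 UMIs for THC or for both libraries, with under 20% mitochondrial UMIs and with the clusters joined. It was 3 with 500 UMIs and 5 with the libraries clustered apart. Actg2 ranged from 0.46 to 1.10. With under 5% mitochondrial UMIs no cluster took the smooth muscle name, and no value could be had. Genes past 1.5-fold in the class numbered 926, 74 when thinned, 6290 with a minimum of 1 UMI in place of 20, and 1822 with the libraries clustered apart. Of the calls, 38.1% were higher in THC as reported and 53.9% with TMM scaling, which moves every log2 value by 0.09. The cause of these moves was not tested.

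The smooth muscle-like over fibroblast-like values, 7.93 in THC and 7.78 in vehicle, were 8.15 and 7.54 when thinned, 8.67 and 8.13 without the richest cells, 7.61 and 6.83 at resolution 0.5, 7.55 and 7.29 with the libraries clustered apart, 7.78 and 7.57 with 2525 UMIs for THC, 7.72 and 7.46 with 500 UMIs, and 7.38 and 7.19 with the clusters joined. The THC value was 8.11 with the mean of per-cell CPM. The vehicle value was 7.57 with the contractile genes kept, 7.60 with 2525 UMIs in both libraries and 7.60 with under 20% mitochondrial UMIs. Depth limits Lmod1 and Ckm, with 178 to 251 UMIs per library in the class, and the pericyte-like class of 5 and 8 cells.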
